A study of Homo sapiens with 33 samples.

Results

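The keratin genes were taken as every row of the deposited count table whose symbol is KRT followed by digits and at most one letter from A to C, which left out keratin pseudogenes, keratin-associated proteins and antisense genes. This gave 55 of 56470 gene symbols, of which 28 code for type I keratins, 26 for type II keratins and 1, KRT222, for a keratin-like protein. In GENCODE on GRCh37, 27 of them lie on chromosome 12 (chr12:52562780-53346690) and 28 on chromosome 17 (chr17:38810917-39781094). They were grouped as 5 simple, 3 basal, 5 wound-associated, 11 suprabasal, 17 hair shaft, 9 hair follicle sheath and 5 other keratins. The question was which keratins each cell line held without the drug, and how these levels differed with cetuximab.

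Keratins are the intermediate filament proteins of epithelial cells, and a filament forms only when a type I keratin pairs with a type II keratin. Simple epithelia make KRT8 with KRT18, often with KRT7 and KRT19, whereas the basal layer of stratified epithelia makes KRT5 with KRT14, and KRT15 with them. Cells that leave the basal layer switch to other pairs, KRT1 with KRT10 in skin and KRT4 with KRT13 in the lining of the mouth, and wounded or activated keratinocytes make KRT6A, KRT6B, KRT16 and KRT17. EGFR, the receptor that cetuximab binds and blocks, is one of the known inputs to the growth and differentiation of keratinocytes.

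Bulk RNA sequencing (RNA-seq) was performed daily on SCC1, SCC6 and SCC25, established head and neck squamous cell carcinoma (HNSCC) cell lines, treated with 100 nM cetuximab (CTX) or with PBS as the untreated control. Medium with the drug or PBS was renewed each day, and treatment began 1 day after plating. The 33 libraries cover PBS on days 0 to 5 and cetuximab on days 1 to 5, with 1 library for each line, treatment and day. Treated SCC6 has no library labelled day 1 and 2 labelled day 2, called 2a and 2b here. The SCC6 fold changes therefore set PBS days 1 to 5 against treated days 2 to 5. Each line is one model. The labels give hydrocortisone in the medium of SCC1 and SCC25 and not of SCC6, whereas the study's methods describe a common medium, so whether medium differed between the lines is not settled. The 5 days of a treatment stood in for replicates, and p-values therefore measure the spread between days and libraries, which may be technical in part. Levels are CPM, the count of a gene scaled to the library size after TMM, mean ± SD over days 1 to 5 (n = 5). Log2 fold changes and slopes are given ± SE, with p-values adjusted over all genes tested. Keratins are compared with each other as CPM per kb of transcript, except in the pair ratios and the sums of similar keratins. Those are not scaled by length, so a pair ratio is to be read for its change and not for its level. In bulk RNA, fewer cells that make a keratin and less of its RNA per cell cannot be told apart.

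Total counts per library ranged from 28508758 to 80727478, the highest being SCC6 CTX on days 4 and 5. The libraries came from 5 run codes. In SCC1 the PBS libraries of days 1 to 4 carried another code than all CTX libraries, and only PBS on day 5 shared theirs. SCC6 CTX days 4 and 5 were alone on theirs, and SCC6 PBS days 0 and 1 carried another code than PBS days 2 to 5. In SCC25, CTX days 3 to 5 carried another code than the rest of that line. The trend of the counts with GC content stood apart in SCC6 PBS day 1, SCC6 CTX days 4 and 5, and SCC25 CTX day 3. All 7 epithelial markers (EPCAM, CDH1, TP63 and the keratins KRT5, KRT14, KRT8 and KRT18) were detected in every line, with summed levels of 3092 to 12908 CPM. The 7 fibroblast markers summed to 21.0 to 32.8 CPM with PBS and 50.1 to 145.8 CPM with cetuximab in SCC1, 2.93 to 5.05 and 9.05 to 115.2 CPM in SCC6, and 145.1 to 195.5 and 252 to 406 CPM in SCC25. Of these 7 genes, 4 to 6 stayed under 1 CPM in each group of SCC1 and SCC6 and 1 to 2 in SCC25, and the sums were mostly collagen. Their part in the keratin results was not tested. Leukocyte, endothelial and melanocyte markers summed to at most 7.23, 2.78 and 2.83 CPM.

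Promoters held by the RefSeq table (GRCh38.p14) matched 34 of the 55 keratins. The 250 bases before an annotated start are shown for 4 of them. KRT5 and KRT8 were chosen as the type II keratins of the basal and the simple pair. KRT34 and KRT75 were chosen as the hair keratins that differed with cetuximab. All 4 lie on the minus strand and are written 5′ to 3′, at chr12:52520395-52520644 for KRT5, chr12:52926470-52926719 for KRT8, chr17:41382307-41382556 for KRT34 and chr12:52434372-52434621 for KRT75. Capitals mark TATA spellings (TATAAA or ATAAAA, which overlap in TATAAAA) and the AP-2 motif GCCNNNGGC, searched on both strands together with the AP-1 motif TGANTCA.
KRT5: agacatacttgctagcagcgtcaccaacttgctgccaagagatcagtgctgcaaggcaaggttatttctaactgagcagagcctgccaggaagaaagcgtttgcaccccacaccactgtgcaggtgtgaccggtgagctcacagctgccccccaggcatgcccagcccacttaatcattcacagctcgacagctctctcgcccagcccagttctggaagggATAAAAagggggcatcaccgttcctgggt
KRT8: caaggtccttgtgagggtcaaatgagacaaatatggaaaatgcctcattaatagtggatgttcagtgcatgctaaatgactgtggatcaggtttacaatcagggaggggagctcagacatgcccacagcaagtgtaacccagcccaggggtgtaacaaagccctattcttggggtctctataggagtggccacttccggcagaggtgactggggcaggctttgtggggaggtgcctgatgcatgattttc
KRT34: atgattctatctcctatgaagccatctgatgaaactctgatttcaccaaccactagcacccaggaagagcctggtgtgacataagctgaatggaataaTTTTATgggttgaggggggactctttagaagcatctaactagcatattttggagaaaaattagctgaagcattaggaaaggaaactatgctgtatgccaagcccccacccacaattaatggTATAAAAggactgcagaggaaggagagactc
KRT75: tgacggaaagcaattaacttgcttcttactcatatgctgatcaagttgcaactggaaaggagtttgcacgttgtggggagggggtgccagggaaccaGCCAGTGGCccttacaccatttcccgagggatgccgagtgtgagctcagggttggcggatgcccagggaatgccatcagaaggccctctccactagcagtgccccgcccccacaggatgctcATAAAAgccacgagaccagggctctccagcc
KRT5, KRT34 and KRT75 had a TATA spelling that began 29 to 31 bases before the start, and KRT75 had the AP-2 motif 153 bases before it. The KRT8 window held none of these letters. By the shift between builds that KRT75 shows, this window lies within the KRT8 gene as annotated in GRCh37. It therefore precedes an inner start and may not be the main KRT8 promoter. It cannot show whether that promoter lacks these letters. A TATA spelling was present in 28 of the 34 keratin windows and in 19.7% of all 35116 promoter windows of this length. The AP-2 motif was present in 5 keratin windows (KRT4, KRT9, KRT73, KRT74 and KRT75) and 19.8% of all windows, and the AP-1 motif in 0 and 6.57%. These matches describe the letters only.

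Without the drug, each line had its own keratin profile. Per kb of transcript, simple keratins made up 75.8% ± 8.76 of the keratin level in SCC1 and 81.4% ± 1.96 in SCC6 (SD, n = 5 days), but 14.6% ± 1.90 in SCC25, where basal keratins made up 56.6% ± 0.765. The basal keratins were 11.7% ± 5.57 of the total in SCC1 and 0.280% ± 0.0301 in SCC6. Simple keratins thus led in SCC1 and SCC6, and basal keratins in SCC25. Keratins took 0.539% to 0.618% of all counts with PBS on days 1 to 5 in SCC1, 0.692% to 1.36% in SCC6 and 1.28% to 1.89% in SCC25.

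The leading keratin per kb was KRT7 in SCC1 (32.3% ± 3.42), KRT8 in SCC6 (41.8% ± 3.37) and KRT5 in SCC25 (30.3% ± 0.810). In SCC1, KRT8 (20.5% ± 4.09) and KRT18 (20.3% ± 4.15) followed and did not differ beyond their spread. In SCC25, KRT14 came next (26.0% ± 0.479), ahead of KRT6A (18.5% ± 0.697). In SCC6 a hair shaft keratin, KRT81, held 8.01% ± 1.92 of the keratin level. KRT81, a type II keratin of the hair cortex, lies outside the genes named by rule, as do KRT34, KRT9 and KRT80 of SCC1, and these were picked after their values were seen. Its level was 976 ± 122 CPM in SCC6, against 5.71 ± 1.36 in SCC25 and 0.350 ± 0.0652 in SCC1. KRT80, a type II keratin of many epithelia, followed the same order, with 566 ± 54.2, 39.8 ± 4.16 and 10.9 ± 2.22 CPM.

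**Figure D1:**
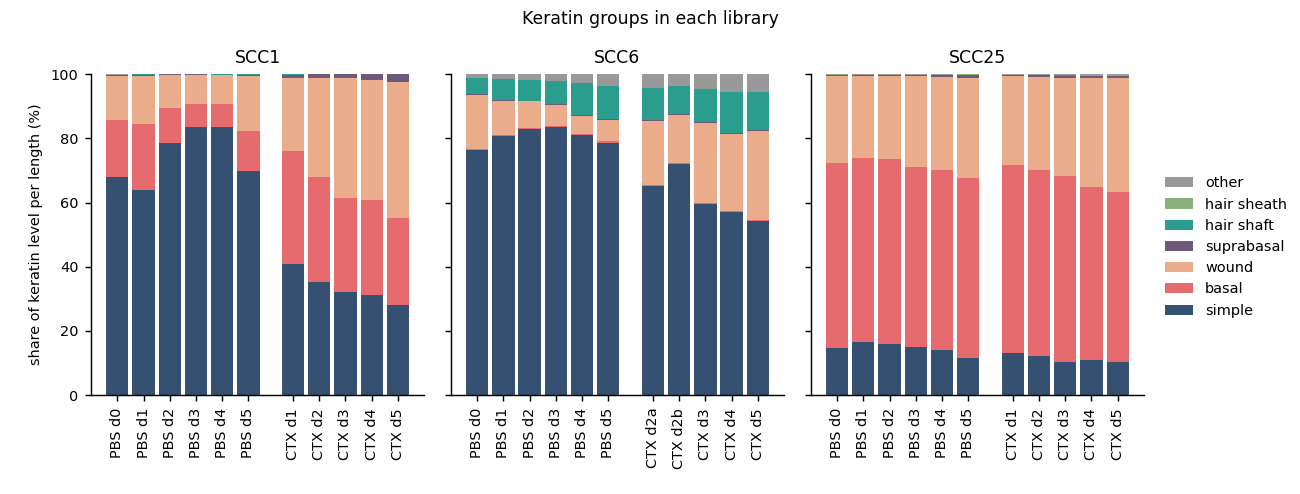
Share of each keratin group in the keratin level per kb of transcript (y axis, percent), for each library (x axis, treatment and labelled day; CTX is cetuximab, 2a and 2b are the 2 SCC6 libraries labelled day 2). Each bar is 1 library. Simple keratins filled 27.98% to 40.8% of the bars of SCC1 with cetuximab against 63.8% to 83.5% with PBS on days 1 to 5, and basal keratins filled 52.9% to 58.7% in SCC25 on these days.

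The basal pair set SCC6 apart from the other lines. KRT5, the type II basal keratin (chr12:52908359-52914314), had 4617, 5204, 5040.5, 5523 and 6426 CPM on days 1 to 5 with PBS in SCC25, 1045, 413, 285, 315 and 686 CPM in SCC1 and 3.24, 2.39, 1.78, 2.42 and 2.05 CPM in SCC6. No SCC6 library came near the lowest library of the other lines. The log2 difference was 11.13 ± 0.43, adjusted p = 3.15e-13 for SCC25 against SCC6, and -7.83 ± 0.38, adjusted p = 7.85e-12 for SCC6 against SCC1. KRT14, its type I partner (chr17:39738531-39743147), followed, with 3377 ± 536 CPM in SCC25, 234 ± 84.2 in SCC1 and 3.95 ± 1.80 in SCC6. KRT15, the other basal type I keratin, did not share this order, since SCC6 (24.97 ± 2.94 CPM) was above SCC1 (5.43 ± 0.715 CPM; log2 difference 2.21 ± 0.27, adjusted p = 1.45e-06). The simple keratins KRT8 and KRT18 were highest in SCC6 (4986 ± 1555 and 2713 ± 552 CPM) and lowest in SCC25 (616 ± 31.8 and 492 ± 29.8 CPM). KRT7 was the exception among them, with 1737 ± 109.8 CPM in SCC1, 608 ± 42.7 in SCC25 and 57.3 ± 13.5 in SCC6.

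Over all keratins, 23 passed the filter on low counts in the comparison of PBS libraries (5 per line). In SCC6 against SCC1, 12 were higher, where 34.5% of all 19744 genes tested were, and 5 were lower, where 34.6% were. In SCC25 against SCC1, 16 were higher (35.1% of all genes) and 4 lower (33.3%), and the median log2 difference, across the keratins tested, was 2.81 for keratins and 0.01 for all genes. In SCC25 against SCC6, 12 were higher (37.3%) and 7 lower (34.8%). The share of keratins called was above that of all genes mainly among those higher in SCC25 than in SCC1, and these comparisons share their libraries.

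Keratin levels also moved over the days of culture without the drug, with rises only among the called keratins of SCC25 and mostly falls among those of SCC6, while KRT13 and KRT80 rose in both. In SCC25, 15 of 21 tested keratins rose from day 0 to day 5, where 8.70% of 17261 genes did, and 0 fell, where 4.72% did. KRT13, the type I keratin of the suprabasal lining of the mouth, went through 4.89, 9.55, 16.4, 30.3, 63.1 and 98.7 CPM on days 0 to 5, each day above the one before (slope 0.88 ± 0.02 log2 per day, adjusted p = 8.73e-11). KRT15 had a slope of 0.49 ± 0.03, KRT75 of 0.38 ± 0.04 and KRT16 of 0.29 ± 0.03. Basal, wound and suprabasal keratins were all among the 15, as was KRT8 at 0.10 ± 0.03. Without day 5 the count was 9.

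In SCC6, 8 of 17 keratins fell over these days (21.9% of 14960 genes did) and 3 rose (16.5%). KRT6A, a type II keratin of wounded epithelium, dropped through 732, 614, 358, 222.3, 81.2 and 33.0 CPM on days 0 to 5 (slope -0.92 ± 0.08, adjusted p = 2.48e-04). KRT6B went from 221.9 to 12.8 CPM, lower on each day than on the day before. KRT14, KRT17, KRT5, KRT8, KRT16 and KRT19 fell as well, while KRT13, KRT7 and KRT80 rose. PBS days 0 and 1 of SCC6 carried another run code than days 2 to 5, and the part of the run code in these slopes was not tested. In SCC1, 3 of 18 keratins rose (2.15% of 16315 genes), KRT18, KRT34 and KRT6B, and 0 fell (1.07%). An unadjusted p under 0.05 was found for 5 keratins in SCC1, 11 in SCC6 and 16 in SCC25. The SCC1 count rested on single libraries: it was 7 without PBS day 5, 1 without day 0 or day 3, and 0 without day 1, 2 or 4.

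**Figure D2:**
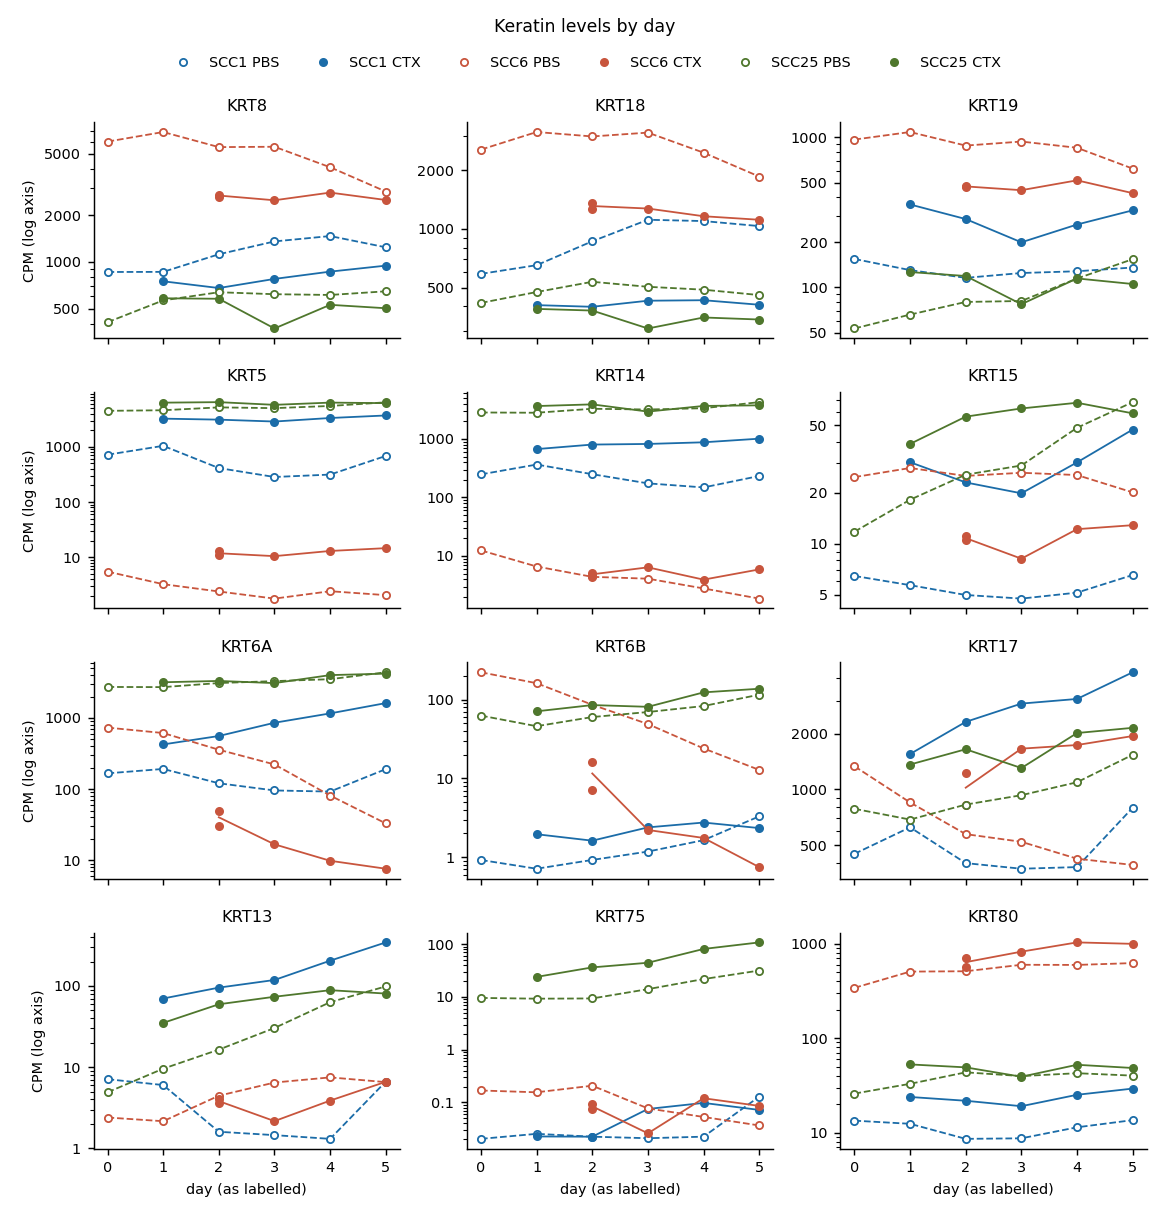
Level of 12 keratins (y axis, CPM on a log axis) by labelled day (x axis), with open circles and dashed lines for PBS and filled circles and solid lines for cetuximab (CTX), in SCC1 (blue), SCC6 (red) and SCC25 (green). Each circle is 1 library, and lines join daily means. KRT18 with cetuximab lay below PBS in each line, KRT6A of SCC6 dropped over the days under both treatments, and KRT13 of SCC25 climbed with PBS from 4.89 CPM on day 0 to 98.7 CPM on day 5.

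More keratins were called with cetuximab in SCC1 than in the other lines, where 3 of 3 tested basal, 3 of 4 wound-associated and 2 of 3 suprabasal keratins rose, and KRT18, KRT8 and KRT34 fell. Of 19 keratins tested there, 11 were higher with cetuximab (22.7% of 17984 genes were) and 3 lower (22.1%), with a median log2 fold change of 1.13 against 0.02 for all genes. In SCC6, 3 of 19 were higher (15.6% of 17387 genes) and 7 lower (14.6%), with a median of -0.43 against 0.00. In SCC25, 2 of 24 were higher (8.80% of 19101 genes) and 1 lower (9.50%), with a median of 0.12 against 0.01. With the labelled day as a block, 8 were higher and 1 lower in SCC25, where 26.8% of all genes were called. The same-day libraries of SCC25 deviated together only weakly (correlations of 0.11 to 0.22). The other 29 keratins passed the filter in no line and stayed at or below 0.301 CPM in every library of days 1 to 5. They comprise 1 simple, 6 suprabasal, 12 hair shaft, 7 hair sheath and 3 other keratins, and changes among them were not detectable at this depth. Keratins took 1.06% to 1.61% of all counts with cetuximab in SCC1, 0.640% to 0.799% in SCC6 and 1.56% to 1.90% in SCC25.

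**Figure D3:**
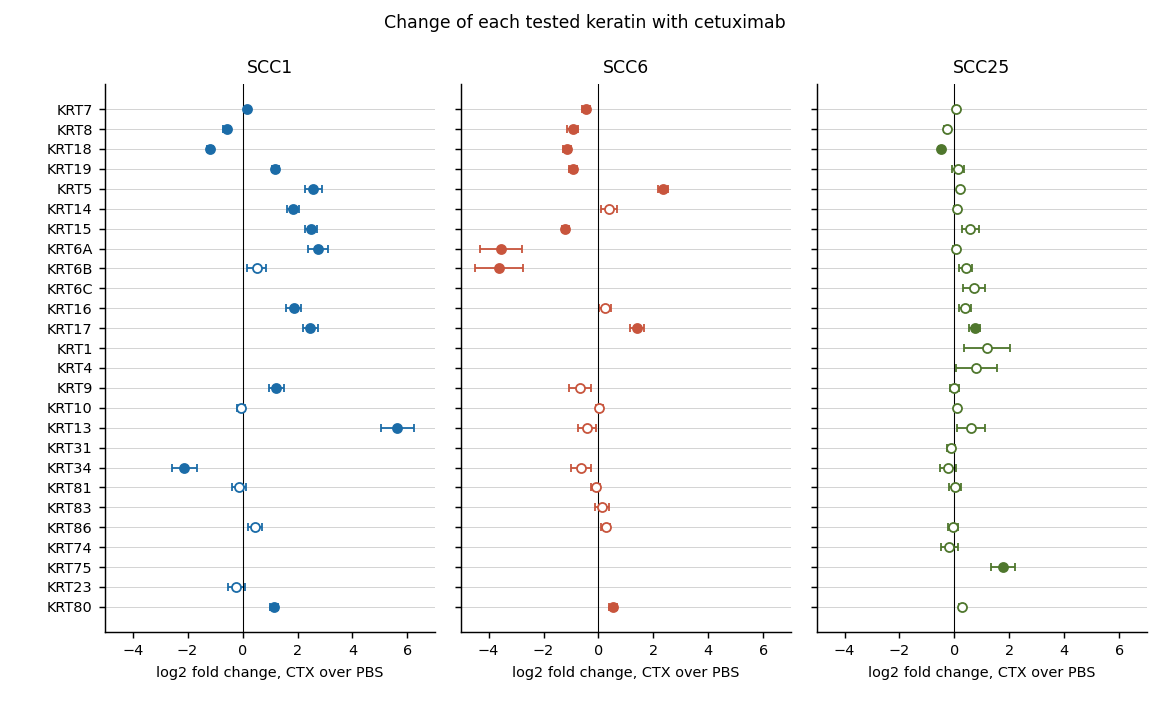
Log2 fold change of cetuximab over PBS (x axis) for each keratin that passed the filter in at least 1 line (y axis, ordered as simple, basal, wound, suprabasal, hair shaft, hair sheath and other), by line. Filled circles have an adjusted p under 0.05, open circles do not, bars are SE, and a missing circle means that the keratin was not tested in that line. SCC1 had 11 filled circles right of 0, SCC6 had 7 left of 0, and SCC25 had 3 filled circles in all.

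Among the simple keratins, KRT18 was lower with cetuximab in all 3 lines. In SCC1 it had 652, 864, 1114, 1097 and 1034 CPM with PBS and 406, 399, 428, 431 and 408 CPM with cetuximab on days 1 to 5. In SCC6 it had 3143, 2983, 3121, 2462 and 1857 CPM with PBS, and 1268, 1354, 1272, 1162 and 1114 CPM in the cetuximab libraries 2a, 2b and days 3, 4 and 5. In SCC25 it had 475, 535, 505, 488 and 458 CPM and 389, 381, 308, 351 and 343 CPM. Treated and untreated libraries did not overlap in any line. The log2 fold change was -1.19 ± 0.12, adjusted p = 8.25e-06 in SCC1, -1.16 ± 0.14, adjusted p = 1.68e-04 in SCC6 and -0.48 ± 0.07, adjusted p = 0.00100 in SCC25, and its size differed between the lines (adjusted p = 0.00243 for the line-by-treatment terms). KRT8, its type II partner, fell in SCC1 (-0.58 ± 0.13, adjusted p = 0.00261) and SCC6 (-0.94 ± 0.19, adjusted p = 0.00388), and the SCC1 call was lost with the run code as a covariate (-0.62, adjusted p = 0.0623). In SCC25 it did not pass (-0.27 ± 0.11, adjusted p = 0.0951), and a difference of its change between the lines was not shown (adjusted p = 0.0764). With the GC trend removed it was called lower in SCC25 (-0.20, adjusted p = 0.00486), but not with the day as a block (-0.29, adjusted p = 0.0660).

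KRT19, the smallest type I keratin, moved in opposite directions in SCC1 and SCC6. It had 130.5, 116, 125, 128 and 136 CPM with PBS and 357, 286, 199.9, 263 and 327 CPM with cetuximab in SCC1, where every treated library was above every untreated one (1.18 ± 0.13, adjusted p = 1.34e-05). In SCC6 it had 1086, 882, 938, 853 and 619 CPM and 467, 476, 445, 518 and 425 CPM, where every treated library was below (-0.93 ± 0.13, adjusted p = 4.49e-04). The change differed between the lines (adjusted p = 1.20e-06). KRT7 was called in the same 2 lines with small changes, 0.17 ± 0.06, adjusted p = 0.0362 in SCC1 and -0.45 ± 0.15, adjusted p = 0.0370 in SCC6. Its ranges overlapped in both. The call was lost in SCC1 without CTX day 1, 2, 4 or 5 or PBS day 3, 4 or 5 (highest adjusted p = 0.109), and in SCC6 without library 2a, CTX day 3 or 5 or PBS day 3 or 4 (highest 0.0885).

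All 3 basal keratins rose in SCC1. KRT5 had 1045, 413, 285, 315 and 686 CPM with PBS and 3252, 3119, 2882, 3340.5 and 3712 CPM with cetuximab, with no overlap (2.58 ± 0.32, adjusted p = 3.97e-05). KRT14 had 365, 249.9, 174, 148 and 233 CPM and 671, 802, 822, 877 and 1011 CPM (1.84 ± 0.21, adjusted p = 2.32e-05). KRT15 went from 5.43 ± 0.715 to 30.1 ± 10.6 CPM (2.48 ± 0.21, adjusted p = 3.04e-06). The 3 genes thus rose together, with ratios of means of 5.94 for KRT5, 5.55 for KRT15 and 3.57 for KRT14. In SCC6, KRT5 also rose, from 3.24, 2.39, 1.78, 2.42 and 2.05 CPM to 10.9, 12.7, 10.5, 12.98 and 14.6 CPM (2.35 ± 0.18, adjusted p = 9.11e-06), while staying far below the level of untreated SCC1. KRT15 fell there from 27.98, 25.1, 26.2, 25.4 and 20.1 CPM to 10.5, 11.1, 8.17, 12.2 and 12.9 CPM (-1.20 ± 0.14, adjusted p = 1.28e-04), opposite to SCC1 (adjusted p = 6.44e-08 for the difference between lines). KRT14 of SCC6 did not pass (0.37 ± 0.29, adjusted p = 0.357). In SCC25 none of the 3 passed in the main fit, with log2 fold changes of 0.21 ± 0.08, adjusted p = 0.0846 for KRT5, 0.08 ± 0.11, adjusted p = 0.649 for KRT14 and 0.58 ± 0.30, adjusted p = 0.202 for KRT15. KRT5 was called higher there with library totals alone (adjusted p = 0.0298), day 0 added (0.0454), the GC trend removed (0.00622) and without PBS day 5 (0.00737), at 0.26 to 0.30. It was not called with the day as a block (0.22, adjusted p = 0.0509) or the run code as a covariate (0.26, adjusted p = 0.152).

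KRT17, a type I keratin of wounded epithelium and hair follicles, was the other keratin that moved the same way in all 3 lines. It had 624.5, 400.0, 373, 381 and 797 CPM with PBS and 1554, 2317, 2909, 3082 and 4294 CPM with cetuximab in SCC1 (2.47 ± 0.28, adjusted p = 2.34e-05). In SCC6 it had 851, 574, 522, 423 and 391 CPM and 1219.8, 825, 1661, 1738 and 1943 CPM (1.40 ± 0.25, adjusted p = 0.00182), with overlap only through PBS day 1 and library 2b. In SCC25 it had 688, 828, 931, 1094 and 1539 CPM and 1364, 1649, 1305, 2017 and 2152 CPM (0.73 ± 0.20, adjusted p = 0.0274), with overlap through PBS day 5. Cetuximab was above PBS on 5 of 5 days in SCC1 and in SCC25. The SCC25 call held with the day as a block (0.76, adjusted p = 8.98e-04). It was lost with the run code as a covariate (0.57, adjusted p = 0.208), a fit that sets CTX days 1 and 2 against PBS days 1 to 5. The call was also lost without CTX day 4 or 5 or PBS day 1, 2 or 3 (highest adjusted p = 0.0737). In SCC6 with cetuximab KRT17 made up 21.7% ± 5.36 of the keratin level per kb, against 5.49% ± 0.777 with PBS.

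KRT6A moved in opposite directions in SCC1 and SCC6. In SCC1 it had 192, 121, 95.8, 92.4 and 191 CPM with PBS and 425, 558, 856, 1158 and 1616 CPM with cetuximab (2.75 ± 0.36, adjusted p = 6.28e-05). In SCC6 it had 614, 358, 222.3, 81.2 and 33.0 CPM with PBS and 30.4, 50.02, 16.8, 9.85 and 7.62 CPM in the treated libraries (-3.54 ± 0.77, adjusted p = 0.00505). The highest of these, PBS day 1, has no treated library of its day. With the labelled day as a block the change was -3.05 ± 0.24 (adjusted p = 6.48e-05). Each treated library of SCC6 was below the PBS library of the same labelled day, while the ranges overlapped, since library 2b (50.02 CPM) was above PBS day 5 (33.0 CPM). KRT6B fell in SCC6 in the same way, from 66.5 ± 59.9 to 5.55 ± 6.33 CPM (-3.64 ± 0.87, adjusted p = 0.00874), and did not pass in SCC1 (0.51 ± 0.34, adjusted p = 0.244). KRT16, the type I partner of KRT6A, rose in SCC1 (1.87 ± 0.28, adjusted p = 1.67e-04) and did not pass in SCC6 (0.24 ± 0.22, adjusted p = 0.446). In SCC25, KRT6A had 2710.5, 3092, 3290.5, 3501 and 4379.9 CPM and 3171, 3309, 3086, 3997 and 4191 CPM and did not pass (0.06 ± 0.12, adjusted p = 0.783). The change differed between the lines for KRT6A (adjusted p = 1.78e-06), KRT6B (3.68e-04), KRT6C (5.45e-05), KRT16 (0.00245) and KRT17 (0.00371).

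KRT13 had the largest fold change among the keratins tested in the 3 lines. In SCC1 it had 6.01, 1.60, 1.45, 1.30 and 6.63 CPM with PBS and 70.0, 95.3, 118, 205 and 344 CPM with cetuximab, higher on each treated day than on the one before and 49.0 times PBS on average (5.63 ± 0.60, adjusted p = 1.39e-05). In SCC25, PBS and cetuximab met on day 5, with 9.55, 16.4, 30.3, 63.1 and 98.7 CPM and 35.0, 59.4, 73.6, 88.6 and 80.5 CPM (0.62 ± 0.51, adjusted p = 0.432). In SCC6 it stayed between 2.15 and 7.47 CPM and did not pass (-0.43 ± 0.34, adjusted p = 0.366). With the run code as a covariate it was lower there (-0.95, adjusted p = 0.0183), in a fit that sets CTX 2a, 2b and day 3 against PBS days 2 to 5. With the day as a block it did not pass (-0.66, adjusted p = 0.0551). The change differed between the lines (adjusted p = 2.44e-06). KRT4, the partner of KRT13, passed the filter only in SCC25 (0.80 ± 0.75, adjusted p = 0.497), although in SCC1 its treated libraries reached 2.34 CPM on day 5. KRT10, a keratin of the upper layers of skin, did not pass in any line in the fits without a run code, with 16.3 ± 3.43 and 15.6 ± 1.74 CPM in SCC1. Its partner KRT1 passed the filter only in SCC25 and reached at most 1.22 CPM. KRT9, a keratin of palm and sole skin, was also higher in SCC1 (1.23 ± 0.28, adjusted p = 0.00336), from a low level, at 1.03 to 2.11 CPM with cetuximab against 0.483 to 1.14 CPM.

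Of the hair shaft and sheath keratins, KRT34 in SCC1 and KRT75 in SCC25 were called. KRT81 in SCC6 had 1073, 859, 982, 1118 and 848 CPM with PBS and 804, 670.1, 850.1, 1212 and 1051 CPM with cetuximab, and its groups overlapped (-0.11 ± 0.15, adjusted p = 0.634). KRT75, a hair follicle sheath keratin, rose in SCC25, with 9.28, 9.38, 14.1, 21.8 and 31.7 CPM with PBS and 24.0, 36.4, 44.5, 81.3 and 108 CPM with cetuximab (1.76 ± 0.44, adjusted p = 0.0164). Cetuximab was above PBS on 5 of 5 days, and the ranges overlapped, as levels were higher on later days under both treatments. Within the 1 run code that held both treatments (PBS days 1 to 5, but only CTX days 1 and 2) the KRT75 change was 0.81, adjusted p = 0.238. That fit set early treated days against all PBS days, so it does not compare like days. On days 1 and 2 KRT75 had 9.28 and 9.38 CPM with PBS and 24.0 and 36.4 CPM with cetuximab. KRT34 was lower in SCC1 (-2.12 ± 0.47, adjusted p = 0.00274), at 0.221 to 0.363 CPM with cetuximab against 0.509 to 2.84 CPM with PBS. KRT80 rose in SCC1 from 10.9 ± 2.22 to 23.8 ± 3.82 CPM (1.13 ± 0.15, adjusted p = 5.97e-05) and in SCC6 from 566 ± 54.2 to 824 ± 196 CPM (0.52 ± 0.15, adjusted p = 0.0223), and the SCC6 call was lost with the run code as a covariate (0.25, adjusted p = 0.122). KRT23 was tested only in SCC1, under 2 CPM, and did not pass (-0.23 ± 0.30, adjusted p = 0.566), but was lower with the run code as a covariate (-1.16, adjusted p = 0.0192).

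Across the 30 libraries of days 1 to 5, the change with cetuximab differed between lines for 15 of 26 keratins, where 26.1% of 21414 genes did. KRT15, KRT19, KRT6A and KRT7 were called in opposite directions in SCC1 and SCC6. Of the 15, KRT74 had at most 5 counts in any library of SCC1 or SCC6, too few to show a change there, so that it bears no weight. KRT81 and KRT10 were among the 11 without such a difference (adjusted p = 0.914 and 0.748).

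Calls depended in part on the run code and the day in each line. In SCC6 the run code as a covariate took the call from KRT80 and gave one, as lower, to KRT13 (-0.95, adjusted p = 0.0183). The day as a block gave one there to KRT14 (0.65, adjusted p = 0.0432). In SCC1 with the run code as a covariate, where PBS day 5 is the 1 control library that shares the code of the treated ones, KRT5 (2.26, adjusted p = 0.0238), KRT14 (1.86, adjusted p = 0.00989), KRT18 (-1.31, adjusted p = 9.14e-04), KRT13 (4.67, adjusted p = 0.0117) and KRT6A (2.29, adjusted p = 0.0346) passed, while KRT16 (1.15, adjusted p = 0.0690) and KRT8 did not. KRT10 then passed as higher (0.58, adjusted p = 0.0224). The size of each of these changes rests on that 1 control library, and against it alone KRT6A (2.27, adjusted p = 0.0519) and KRT16 (1.14, adjusted p = 0.118) did not pass. In SCC25 the number of keratins called was 9 with the labelled day as a block and 8 without PBS day 5. The keratins added by the block included KRT16 (0.45, adjusted p = 0.0236), KRT6B (0.43, adjusted p = 0.00361), KRT4 (1.30, adjusted p = 0.0443), KRT13 (1.01, adjusted p = 0.0407) and KRT15 (0.71, adjusted p = 0.0282).

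The partners of a pair did not move by equal amounts. The log2 ratio of type II over type I, on CPM + 0.1, was compared with a two-sided exact permutation test (5 against 5 libraries, smallest possible p = 0.00794) over 14 pairs and lines, and 12 had an adjusted p under 0.05. KRT5 gained on KRT14 in SCC1 (from 1.12 ± 0.41 to 1.97 ± 0.18, SD), in SCC6 (from -0.62 ± 0.56 to 1.24 ± 0.36) and in SCC25 (from 0.67 ± 0.05 to 0.80 ± 0.10), each with an adjusted exact p of 0.0159. KRT8 gained on KRT18 in SCC1 (from 0.35 ± 0.07 to 0.95 ± 0.17, adjusted exact p = 0.0159), SCC6 (from 0.84 ± 0.19 to 1.10 ± 0.12, 0.0463) and SCC25 (from 0.32 ± 0.10 to 0.52 ± 0.14, 0.0463). In both pairs the type II member thus took a larger part with cetuximab. Summed over all keratins per kb, the mean ratio of type I over type II went the other way. It was 0.616 ± 0.072 (SD) with PBS and 0.851 ± 0.144 with cetuximab in SCC1. In SCC6 it was 0.830 ± 0.065 and 1.004 ± 0.093, and in SCC25 0.702 ± 0.040 and 0.746 ± 0.041. This summed ratio was not tested. KRT6B lost against KRT17 in all 3 lines, most in SCC6 (from -3.52 ± 1.03 to -8.72 ± 2.17). KRT6A gained on KRT16 in SCC1 (from 4.04 ± 0.33 to 4.85 ± 0.40, adjusted exact p = 0.0370) and lost in SCC6 (from 3.17 ± 1.22 to -0.33 ± 1.41, 0.0159) and SCC25 (from 5.00 ± 0.29 to 4.62 ± 0.06, 0.0463). KRT4 over KRT13 and KRT1 over KRT10, tested in SCC25 only, did not differ beyond their spread (adjusted exact p = 0.429 and 0.120). With exact sign flips by labelled day in SCC1 and SCC25, 0 of 10 passed, and the smallest p of that test is 0.0625.

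**Figure D4:**
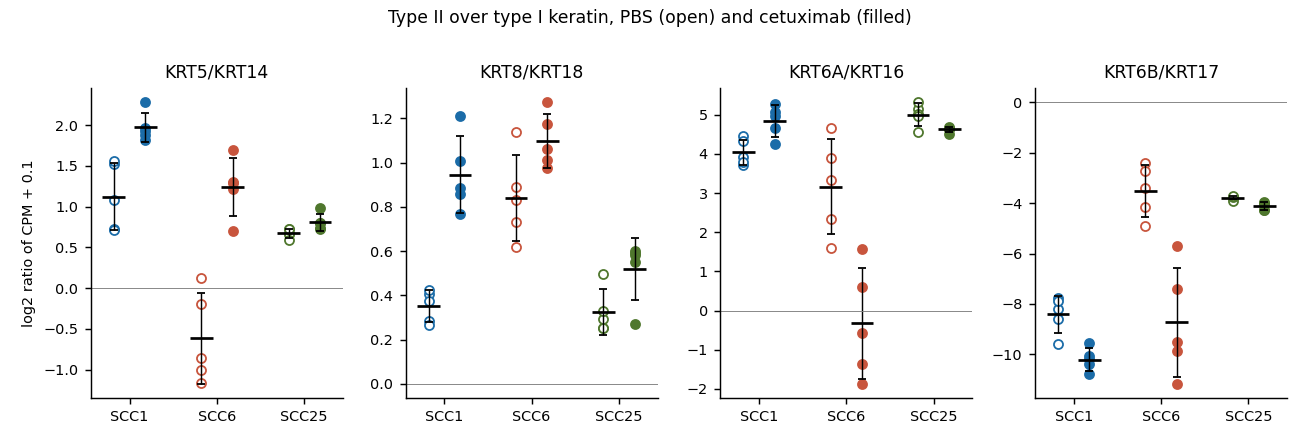
Log2 ratio of a type II keratin over its type I partner (y axis, on CPM + 0.1) in each library of days 1 to 5, with PBS (open circles) and cetuximab (filled circles), by line (x axis). Bars are mean ± SD of 5 libraries. KRT5/KRT14 and KRT8/KRT18 had higher means with cetuximab in each line and KRT6B/KRT17 lower ones, and the KRT5/KRT14 mean of SCC6 went from -0.62 to 1.24.

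The slope over the days was also compared between cetuximab and PBS. A different slope over the days from that of PBS was found for 5 of 19 keratins in SCC6 (28.2% of 17387 genes, so that the keratins were near the share of all genes), for 0 of 19 in SCC1 (0.617% of 17984 genes) and for 0 of 24 in SCC25 (0% of 19101 genes) in the quasi-likelihood fits of edgeR. At an unadjusted p under 0.05 there were 9, 5 and 9, and DESeq2 called 1 in SCC1 and 3 in SCC25. In SCC6, KRT17 (slope difference 0.59 ± 0.09 log2 per day), KRT16 (0.49 ± 0.09), KRT14 (0.46 ± 0.12) and KRT8 (0.28 ± 0.07) all fell over the days with PBS and had higher slopes with cetuximab, and KRT10 had the opposite sign (-0.25 ± 0.06). These SCC6 values use day 2 for both 2a and 2b, as labelled, and the count was 3 without PBS day 1. The log2 trend for genes of 57% GC or more was 0.40 in PBS day 1 and -0.34 to -0.18 in PBS days 2 to 5. With cetuximab it was -0.22 to -0.04 up to day 3, then 0.62 and 0.38 on days 4 and 5. KRT17, KRT16, KRT14 and KRT8 have 59.3% to 61.9% GC and KRT10 52.0%. The part of GC content and run code in the slopes was not tested.

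Other proteins of the filament system were counted in the same fits. Of 10 genes for linkers and keratin-binding proteins, 5 were higher and 2 lower in SCC1, 2 higher and 1 lower in SCC6, and 1 higher and 2 lower in SCC25. Over all genes, the higher and lower shares were 22.7% and 22.1% for SCC1, 15.6% and 14.6% for SCC6, then 8.80% and 9.50% for SCC25. The SCC6 and SCC25 counts were about at those shares. DST, which codes for dystonin, a linker of keratin to hemidesmosomes, rose in all 3 lines (log2 fold change 1.00, 0.51 and 0.35), and TCHP, which codes for trichoplein, fell in all 3 (-0.48, -0.40 and -0.21). FLG, the filaggrin gene, rose in SCC1 and SCC6 (2.14 and 1.68) and fell in SCC25 (-0.47). Of 14 other intermediate filament genes, 8 were tested in SCC1 (2 higher, 4 lower), 9 in SCC6 (4 higher, 0 lower) and 10 in SCC25 (2 higher, 1 lower), to be read against the same shares. VIM, the vimentin gene of mesenchymal cells, was lower in SCC1 (-3.88), higher in SCC6 (2.00), and not called in SCC25 (-0.47).

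Some keratins resemble each other in sequence, to differing degrees, and the estimated counts could be split wrongly among them. Among such sets are KRT6A with KRT6B and KRT6C, KRT81 with KRT83 and KRT86, and KRT14 with KRT16 and KRT17. Summed, KRT6A, KRT6B and KRT6C had a log2 fold change of 2.73 ± 0.36 (SE) in SCC1, -3.56 ± 0.78 in SCC6 and 0.07 ± 0.13 in SCC25. KRT14, KRT16 and KRT17 summed to changes of 2.30 ± 0.25, 1.37 ± 0.25 and 0.26 ± 0.13. The directions of the larger members in SCC1 and SCC6 therefore held for the sums. In SCC25, KRT14 (3377 CPM with PBS, log2 fold change 0.08) outweighed KRT17 (1016 CPM) in the sum. That sum therefore cannot show whether the KRT17 call holds. The pseudogenes of KRT8 had at most 2.36% of the KRT8 count in any library and those of KRT18 at most 0.521%. The KRT8 and KRT18 genes, in GRCh37, overlap on opposite strands, as do KRT81 and KRT86, and how the counts used strand was not stated.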

How the data were processed

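RNA-seq of 33 libraries was analysed. The authors quantified transcripts with Salmon 0.8.2 (version and the builds hg19 and GRCh37 per the submitters' processing notes), imported them with tximport and deposited estimated counts per gene symbol. The annotation behind the counts was not given in the sources used here. Of the deposited values 63.2% were whole, and all were rounded to whole numbers. The deposited table had 0 columns without a sample.

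Genes were filtered with filterByExpr and scaled by TMM. Each line, the 3 lines together, the PBS libraries and the slopes over days were fitted with edgeR 4.0.16 (quasi-likelihood F test, two-sided, Benjamini-Hochberg over all genes tested, threshold 0.05) under R 4.3.3 with limma 3.58.1. DESeq2 1.42.0, other scalings, no filter, blocks, run codes, a GC correction and leaving out each library were the alternatives. The GC correction was chosen after seeing the data. The fits were tested on simulated data. Pair ratios were compared by exact permutation in R, and summaries and figures were made in Python 3.11.15. GENCODE on GRCh37 gave positions, lengths and GC content, and RefSeq on GRCh38.p14 gave promoters. The ATAAAA spelling was added after the sequences were seen.

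The members, groups and lists were chosen with earlier results of these data known. Named with values were the genes of 6 type II and type I pairs, KRT15, KRT17, KRT19, KRT7 and KRT23, in each line the 4 called keratins with the largest rise and the 4 with the largest fall at a mean of at least 1 CPM, and those called in opposite directions between lines. For pairing by day, libraries of the same labelled day were compared by the correlation of their deviations from the group means, which was 0.06 to 0.19 in SCC1, -0.06 to 0.29 in SCC6 and 0.11 to 0.22 in SCC25. All pairs were above 0.1 in SCC25 alone. No libraries of a group agreed within sampling noise (lowest chi-square per gene 5.77).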

Additional observations from a re-analysis of the deposited data

Results flagged for a closer look

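In 3 of 90 groups of 5 libraries 1 library stood far from the others, with a gap above 0.71 of the group's range, and chance flags about 1 in 20 such groups. KRT14 had 2936 CPM in SCC25 CTX day 3 against 3650.2 to 3901 CPM on the other treated days. KRT7 had 484 CPM in the same library against 649.7 to 712 CPM. This library also had the GC trend that stood apart (-0.51 on the log2 scale for genes of 57% GC or more), whose part in these values was not tested. KRT16 had 51.2 CPM in SCC1 CTX day 5 against 21.9 to 29.8 CPM.

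The change with cetuximab differed between the 3 lines (edgeR's quasi-likelihood test of the line-by-treatment terms, adjusted p over all genes) for 15 keratins. Among basal keratins these were KRT15 (6.44e-08), KRT5 (1.34e-06) and KRT14 (8.03e-05). Among wound-associated keratins they were KRT6A (1.78e-06), KRT6C (5.45e-05), KRT6B (0.000368), KRT16 (0.00245) and KRT17 (0.00371). The simple keratins were KRT19 (1.20e-06), KRT18 (0.00243) and KRT7 (0.00964), and the suprabasal ones KRT13 (2.44e-06) and KRT9 (0.00435). KRT80 (0.00657) and KRT74 (0.0280) completed them. KRT74 had at most 5 counts in any library of SCC1 and SCC6, too few to show a change there.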

How the results depend on the processing

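Of 836 values of single keratins under alternatives, 762 kept their direction and side of the threshold, 36 lost the call, 19 gained one and 19 changed sign. The sign changes were KRT6B (-0.56 and -0.58) and KRT10 (0.58 and 0.56) in SCC1 and KRT6A (-0.066 and -0.068) and KRT4 (-0.56 and -0.56) in SCC25, with the run code as a covariate and within 1 run code, KRT23 in SCC1 without PBS day 5 (-0.36 to 0.13 without 1 library), KRT14 in SCC6 with day 0 added (-0.078) and KRT16 in SCC6 with the GC trend removed (-0.027). KRT10, near 0 in SCC6, changed sign there with the GC trend removed (-0.059), with the day as a replicate block (-0.045) and in 4 of 10 fits without 1 library (-0.024 to 0.12), and once in SCC1 (-0.19 to 0.0078). KRT6A in SCC25 did so without PBS day 1 (-0.0015 to 0.18). In the main fits none of them was called in the line concerned. With the run code as a covariate, KRT10 in SCC1 passed as higher (adjusted p = 0.0224) and KRT23 as lower (-1.16, and -1.17 within 1 run code). KRT13 in SCC6 then also passed as lower (-0.95, adjusted p = 0.0183), as it did within 1 run code (-0.93, adjusted p = 0.0152). Calls were also gained by KRT6B in SCC1 without PBS day 5 (0.98, adjusted p = 0.00576) and KRT14 in SCC6 with the day as a block (0.65, adjusted p = 0.0432). KRT4 in SCC25 gained one with the block (1.30, adjusted p = 0.0443) and without PBS day 5 (2.08, adjusted p = 0.0433). With the GC trend removed, KRT8 (-0.20, adjusted p = 0.00486) and KRT5 (0.26, adjusted p = 0.00622) gained one in SCC25. KRT5 there also gained one with library totals alone, with day 0 added and without PBS day 5. In SCC25 both run code settings set CTX days 1 and 2 against PBS days 1 to 5.

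The SCC25 count of 3 became 5 with library totals alone, 1 with the run code as a covariate, 6 with the GC trend removed, 1 when an absolute log2 change of 1 or more was also required, and 2 to 8 without 1 library (8 without PBS day 5). With that requirement the SCC6 count of 10 became 6. Without the filter, PBS calls were 33 for SCC25 against SCC1 and 29 for SCC25 against SCC6. The SCC1 count of PBS slopes (3) was 5 by DESeq2, 1 on days 1 to 5 and 0 to 7 without 1 library. The slope differences were 1 (DESeq2), 3 (no filter) and 0 to 6 (6 without PBS day 5, 1 without PBS day 1) in SCC1, 3 (DESeq2), 1 (no filter) and 0 to 3 (3 without CTX day 3, 1 without CTX day 1) in SCC25, and 3 to 6 without 1 library in SCC6. The SCC25 PBS slopes were 9 to 15 without 1 library. The causes were not tested.

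With the labelled day as a replicate block, the SCC25 count was 9. The sign flips by day cannot show whether the pair ratios hold, since their smallest possible p is 0.0625 and 0 could pass. In SCC1 and SCC6 the same-day correlations were not all above 0.1, although they reached 0.19 and 0.29, so whether the day pairs libraries there is not settled. The block took the call from KRT7 in SCC1 (0.17, adjusted p = 0.0599) and gave one to KRT14 in SCC6 (0.65).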
